A study of Mus musculus with 18 samples.

Results

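Wnt signalling reaches the genome through TCF/LEF transcription factors, the coactivator β-catenin and the Groucho corepressors, and the transcripts of these proteins were followed in mouse embryonic stem (ES) cells in 3D culture. The members were the genes whose Ensembl identifiers map to the symbols Tcf7, Tcf7l1 (also called Tcf3), Tcf7l2, Lef1, Ctnnb1, Tle1, Tle2, Tle3 and Tle4 in the annotation of GRCm38. They were 9 of 49671 genes in the count table, of which 31411 had a count in at least 1 of 18 samples.

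Poly(A) RNA was sequenced from 6 groups of 3 samples, all of ES cells that had been kept in 2i/Lif and were then embedded in Matrigel in N2B27 medium. E14 cells (strain label 12910la, passage 20) spent 48 h there with the solvent DMSO, with CH, with 2i or with Fgf2/Activin. CH stands for 3 µM CHIR99021, an inhibitor of the kinase GSK3, and 2i for 3 µM CHIR99021 with 0.4 µM PD0325901, an inhibitor of the kinase MEK. Fgf2/Activin cultures received Activin A, at 20 ng/ml, together with the growth factor Fgf2, whose concentration was 12 ng/ml. The other groups came from a single line of Esrrb fl/fl ES cells (strain label Acr-EGFP transgenic, passage 25) that carries a tamoxifen-inducible Cre. These cells were treated with 4OHT for 1 day (Esrrb 4OHT) or left untreated (Esrrb NT), and both then spent 24 h in 3D culture with 3 µM CHIR99021. Since the Esrrb fl/fl groups differ from the E14 groups in line, passage and time, they were tested only against each other. No group received Cre without floxed alleles, so the effects of 4OHT and Cre cannot be told apart from that of losing Esrrb. Total counts per sample ran from 25388139 to 37158661 in E14 cells and from 19915222 to 20140699 in Esrrb fl/fl cells.

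In the absence of a Wnt signal, a destruction complex that contains GSK3 marks β-catenin for degradation, and TCF/LEF proteins on DNA recruit Groucho corepressors. When GSK3 is inhibited, β-catenin accumulates, binds the amino-terminal end of TCF/LEF proteins and turns their target genes on. In mouse ES cells TCF7L1 acts mainly as a repressor of genes of the pluripotency network, TCF7 and LEF1 are seen more as partners of β-catenin in activation, and β-catenin also links cadherins to the cytoskeleton at cell junctions.

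The labelled cell type was checked first. All 6 of 6 pluripotency markers (Pou5f1, Sox2, Nanog, Zfp42, Dppa5a and Utf1) had counts in every sample. Their summed level was 1571 to 1636 CPM (counts scaled by library size) in DMSO, 2583 to 2957 CPM in CH, 2035 to 2183 CPM in Fgf2/Activin and 3611 to 4013 CPM in 2i. The markers did not all move together: in CH against DMSO 4 of the 6 rose, while Utf1, the most abundant in DMSO, fell from 686.6 ± 9.55 to 242.3 ± 75.1 CPM. The sum in the Esrrb fl/fl line was 1685 to 1951 CPM after 4OHT and 3011 to 3223 CPM without it. The 6 of 6 primitive endoderm markers summed to at most 7.18 CPM in any sample.

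Esrrb itself served as a check on the deletion. Its level was 58.1, 62.7 and 58.7 CPM in replicates 1 to 3 of Esrrb 4OHT, against 143.7, 111.2 and 109.9 CPM in Esrrb NT. The groups did not overlap, yet transcripts of the gene were still counted after 4OHT. On the log2 scale the difference was -0.99 ± 0.10 (SE, n = 3 per group, adjusted p = 7.44e-05). Counts cover every exon of the gene, so intact transcripts and transcripts that lack the floxed exon were not separated.

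Replicate 1 of every group stood apart from replicates 2 and 3. Over genes with at least 5 CPM, the SD of the log2 difference between replicate 1 and the mean of the other two was 0.45 in DMSO, 0.44 in CH, 0.32 in Fgf2/Activin and 0.36 in 2i. The SD of the log2 difference between replicates 2 and 3 was 0.18 in DMSO, 0.12 in CH, 0.10 in Fgf2/Activin and 0.09 in 2i. Several members shared in this pattern: in log2 units, replicate 1 stood at -2.34 from the other two for Lef1 in DMSO and at -1.54 for Tcf7l1 in CH. For each member, values without replicate 1 of every group are given where they took its adjusted p across 0.01, and some small differences also turned their sign. The labels do not say whether replicates were separate cultures, so p-values measure the spread between these samples only.

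A gene was called when its adjusted p (edgeR, Benjamini-Hochberg over all genes tested) was under 0.01 and its absolute log2 fold change above 1. The filter on low counts kept the 9 members, among 16413 genes tested in E14 cells and 14893 in the Esrrb fl/fl line. In E14 cells Tle2 passed it only through the libraries of DMSO and Fgf2/Activin, where it was highest, so its values against those groups are a description and not a test. In CH against DMSO 2 members met this rule, Tcf7l1 and Tle2, both lower, where 17.7% of all genes tested were called. With at least 10 counts required in every sample Tle2 was not tested, and 1 member was called. The same members met it in CH against Fgf2/Activin, where 18.2% of all genes were called, and the stricter filter again left 1. In the Esrrb fl/fl line 1 member, Tle4, was called lower after 4OHT, where 16.7% of all genes were called.

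In the other comparisons edgeR called 0 members. For 2i against Fgf2/Activin the background was 23.5% of all genes, DESeq2 called 0 members as well, and 2 had an unadjusted p under 0.05. Against DMSO, 2i also gave 0 members by edgeR and 0 by DESeq2, with 3 at an unadjusted p under 0.05 and 22.3% of all genes called. Between 2i and CH, where 1.99% of all genes were called, edgeR called 0 members, DESeq2 called 1 (Tcf7l1, higher in 2i), and 1 had an unadjusted p under 0.05. Fgf2/Activin against DMSO gave 0 members by edgeR and 0 by DESeq2, with 2 at an unadjusted p under 0.05 and 1.25% of all genes called. The comparisons among E14 groups share samples, so they are not independent of each other.

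By adjusted p under 0.01 alone, without the minimum fold change, 5 members differed between Esrrb 4OHT and Esrrb NT, against 44.5% of all genes. The same rule took 3 members in CH against Fgf2/Activin (30.4% of all genes). It took 1 member, Tle1, in 2i against Fgf2/Activin (37.7% of all genes) and in 2i against DMSO (35.5% of all genes). Without replicate 1 of every group further members passed this rule in several comparisons. In CH against DMSO the median log2 fold change of the 9 members was -0.16, beside -0.0022 over all genes tested. In Esrrb 4OHT against Esrrb NT these medians were -0.10 over the members and 0.0021 over all genes.

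**Figure D1:**
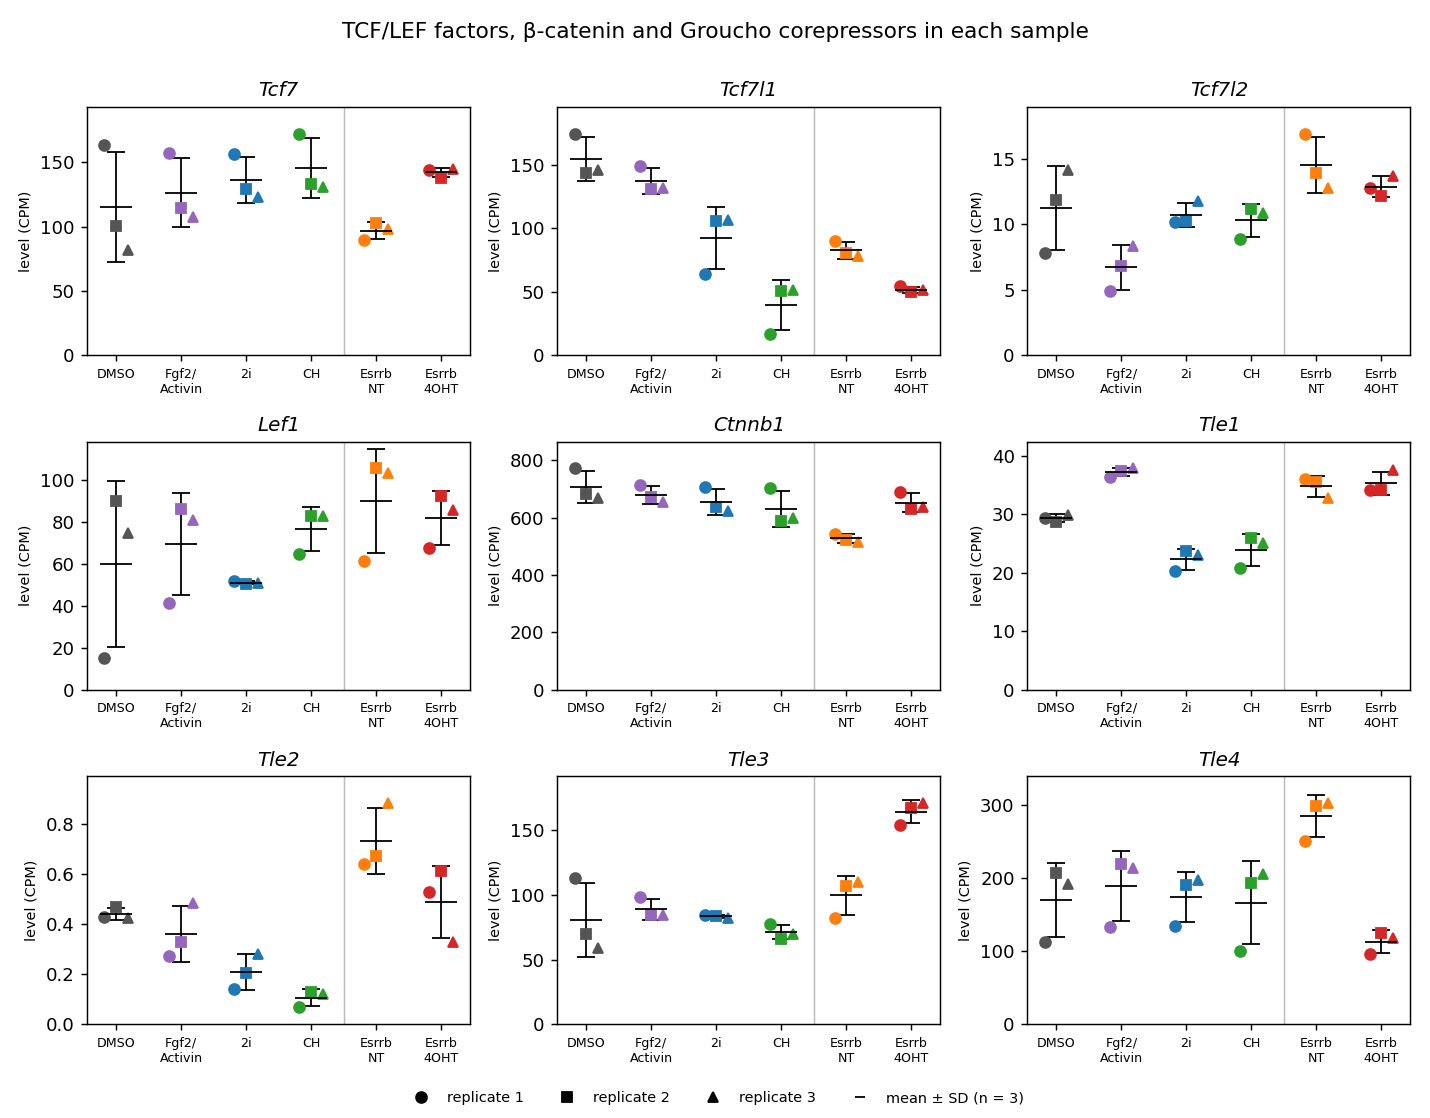
Level of each of the 9 members in CPM (y axis, from 0) in each sample of the 6 groups (x axis), with a marker shape for each replicate number and bars for the mean ± SD (n = 3). Tcf7l1 in CH lay between 16.9 and 51.5 CPM, below every DMSO sample, and Tle4 in Esrrb 4OHT lay between 95.5 and 125.2 CPM, below every Esrrb NT sample.

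Tcf7l1 encodes the TCF factor best known as a repressor in ES cells. Its gene (ENSMUSG00000055799) lies on the minus strand of chromosome 6, from 72626378 to 72789254. In DMSO its level was 174.2, 143.2 and 145.5 CPM in replicates 1 to 3, and in CH it was 16.9, 50.4 and 51.5 CPM. Every CH sample was far below every DMSO sample, and replicate 1 was the lowest of the CH samples and the highest of the DMSO samples. Fgf2/Activin cultures had 148.7, 131.1 and 131.5 CPM of Tcf7l1, a range that overlapped with DMSO. In 2i its level was 64.0, 105.9 and 106.4 CPM, above each CH sample and below each sample of DMSO and of Fgf2/Activin. After 4OHT the Esrrb fl/fl line had 54.1, 49.4 and 51.2 CPM of Tcf7l1, against 90.1, 80.1 and 77.7 CPM without 4OHT. These last groups did not overlap either, although both were grown in CH.

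Ordered by their mean, Tcf7l1 levels were 154.3 ± 17.3 CPM (SD, n = 3 in each group) in DMSO, 137.1 ± 10.1 CPM in Fgf2/Activin, 92.1 ± 24.3 CPM in 2i, 82.6 ± 6.59 CPM in Esrrb NT, 51.6 ± 2.40 CPM in Esrrb 4OHT and 39.6 ± 19.7 CPM in CH. The neighbours in this order overlapped in their samples except at the steps from Fgf2/Activin to 2i and from Esrrb NT to Esrrb 4OHT.

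In CH against DMSO, Tcf7l1 fell by 1.96 ± 0.35 on the log2 scale (SE, adjusted p = 0.000943), which is 3.89-fold lower, in 3 of 3 replicates. Within replicates 1, 2 and 3 the log2 difference was -3.37, -1.50 and -1.50. Without replicate 1 of every group it was -1.49 (adjusted p = 9.49e-13), so the gene was called with and without those libraries. Against Fgf2/Activin, Tcf7l1 in CH fell by 1.79 ± 0.34 on the log2 scale (adjusted p = 0.00157), or by 1.36 without replicate 1 of every group. Under glmTreat, which tests against a log2 fold change of 1, Tcf7l1 was no call against DMSO (adjusted p = 0.0203) or Fgf2/Activin (adjusted p = 0.0423). In bulk samples such as these, fewer cells with the transcript and less transcript per cell cannot be told apart.

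The groups that carry CHIR99021 also differed among themselves in Tcf7l1. Adding the MEK inhibitor to CH went with a log2 difference of 1.22 ± 0.34 (2i minus CH), higher in 3 of 3 replicates, but its adjusted p of 0.0569 missed the threshold in edgeR. DESeq2 gave an adjusted p of 0.00617 and the same direction, and without replicate 1 of every group the log2 difference was 1.06 (adjusted p = 9.05e-10), a call in both cases. It was no call with the replicate number as a term (a replicate block, log2 difference 1.25, adjusted p = 0.016), nor on leaving out any single library, where the log2 difference ran from 0.85 to 1.45 and the adjusted p reached 0.164. For 2i against DMSO the log2 difference in Tcf7l1 was -0.74 ± 0.33 (adjusted p = 0.0881), and -0.43 without replicate 1 of every group (adjusted p = 3.33e-07). Against Fgf2/Activin the log2 difference of 2i was -0.57 ± 0.33 (adjusted p = 0.177), and -0.30 without replicate 1 of every group (adjusted p = 1.5e-05). None of these last values reached the minimum fold change.

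Tcf7l1 was also lower after 4OHT in the Esrrb fl/fl line, by a log2 difference of -0.64 ± 0.071 (adjusted p = 9.76e-05), in 3 of 3 replicates. This passed the threshold on adjusted p but not the one on fold change.

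Tcf7 encodes the TCF factor of T cells, which is also abundant in ES cells. The gene (ENSMUSG00000000782) spans 52252371 to 52283014 on the minus strand of chromosome 11. DMSO samples had 163.9, 100.7 and 82.0 CPM of Tcf7, and CH samples had 172.3, 133.2 and 130.6 CPM. The ranges overlapped because of the DMSO sample of replicate 1, which was above the lower pair of CH samples. Levels of Tcf7 were 157.5, 114.3 and 107.9 CPM in Fgf2/Activin and 156.7, 129.1 and 122.9 CPM in 2i, so replicate 1 was the highest in each E14 group. Esrrb fl/fl cells had 143.8, 138.3 and 145.2 CPM of Tcf7 after 4OHT and 89.8, 102.9 and 97.97 CPM without it, with a clear gap between the groups.

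For Tcf7 the log2 difference between CH and DMSO was 0.33 ± 0.24 (adjusted p = 0.282). It was 0.54 without replicate 1 of every group (adjusted p = 1.42e-05), and 0.37 with the replicate block (adjusted p = 0.00785), both under the minimum fold change. Leaving out replicate 1 of every group also gave Tcf7 a log2 difference of 0.47 for 2i against DMSO (adjusted p = 3.89e-05) and of 0.25 for CH against Fgf2/Activin (adjusted p = 0.00646). With all libraries these values were 0.24 (adjusted p = 0.429) and 0.20 (adjusted p = 0.513). They were 0.28 (adjusted p = 0.0276) and 0.21 (adjusted p = 0.087) with the replicate block. Within replicate 1 the log2 difference between 2i and DMSO was -0.07. After 4OHT, Tcf7 was higher by a log2 difference of 0.59 ± 0.059 (adjusted p = 5.92e-05) in 3 of 3 replicates, which also missed the minimum fold change. The order of mean levels of Tcf7 was CH, Esrrb 4OHT, 2i, Fgf2/Activin, DMSO and Esrrb NT, from 145.4 ± 23.4 CPM to 96.9 ± 6.59 CPM, and each neighbouring pair of groups overlapped.

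Lef1 encodes the lymphoid enhancer factor, a TCF/LEF protein that is itself switched on by Wnt signals in many tissues. Its gene (ENSMUSG00000027985) runs from 131110471 to 131224356 on the plus strand of chromosome 3. In DMSO the level of Lef1 was 15.4, 90.1 and 74.8 CPM, and in CH it was 64.6, 82.7 and 83.1 CPM. The DMSO sample of replicate 1 was by far the lowest of all 18 samples, while the other DMSO samples lay within or above the range of CH. In Fgf2/Activin the values of Lef1 were 41.5, 86.1 and 81.0 CPM, again with replicate 1 below the rest. In 2i the samples were close together at 52.1, 50.3 and 50.9 CPM. Esrrb fl/fl cells had 67.7, 92.5 and 86.0 CPM of Lef1 after 4OHT and 61.5, 105.6 and 103.3 CPM without it.

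Between CH and DMSO the log2 difference in Lef1 was 0.36 ± 0.48 (adjusted p = 0.583). The sign of that value rested on 1 library: without replicate 1 of DMSO it was -0.10, and without replicate 1 of every group it was 0.01 (adjusted p = 0.867). Lef1 in 2i stood below every CH sample, with a log2 difference of -0.59 ± 0.48 (adjusted p = 0.598). Without replicate 1 of every group the difference between 2i and CH was -0.71 on the log2 scale (adjusted p = 5.33e-06), that between 2i and DMSO was -0.69 (adjusted p = 7.34e-07) and that between 2i and Fgf2/Activin -0.72 (adjusted p = 4.91e-07), all short of the minimum fold change. With all libraries Lef1 differed by -0.23 between 2i and DMSO (adjusted p = 0.725) and by -0.44 between 2i and Fgf2/Activin (adjusted p = 0.472). With the replicate block these values were -0.0041 (adjusted p = 0.993) and -0.33 (adjusted p = 0.457). Within replicate 1 they had the other sign, at 1.76 and 0.33. Mean levels of Lef1 ran from 90.2 ± 24.8 CPM in Esrrb NT through Esrrb 4OHT, CH, Fgf2/Activin and DMSO to 51.1 ± 0.894 CPM in 2i, and all neighbours overlapped. After 4OHT the log2 difference in Lef1 was -0.10 ± 0.20 (adjusted p = 0.689), and -0.19 without replicate 1 of both groups (adjusted p = 0.000398).

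Tcf7l2, the TCF factor known for its part in the gut epithelium and as TCF4, had the lowest level of the TCF/LEF genes in CPM per kb of exon in every group. It lies on the plus strand of chromosome 19, from 55741820 to 55933654 (ENSMUSG00000024985). Its samples had 7.79, 11.8 and 14.1 CPM in DMSO, 8.85, 11.2 and 10.8 CPM in CH, and 10.1, 10.2 and 11.8 CPM in 2i. These groups overlapped with each other. Fgf2/Activin had the lowest levels of Tcf7l2, at 4.92, 6.81 and 8.35 CPM. Those samples were below every CH and 2i sample but overlapped with DMSO, because replicate 1 was the lowest of both groups. Levels of Tcf7l2 in the Esrrb fl/fl line were 12.8, 12.1 and 13.7 CPM after 4OHT and 16.9, 13.9 and 12.8 CPM without it, which overlapped.

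Tcf7l2 differed between Fgf2/Activin and DMSO by -0.75 ± 0.24 on the log2 scale (adjusted p = 0.117), and between 2i and Fgf2/Activin by 0.68 ± 0.24 (adjusted p = 0.0318). Each of these values had the same sign in 3 of 3 replicates, and neither passed the test without a replicate term. With the replicate block the adjusted p was 0.00589 for Fgf2/Activin against DMSO and 0.00112 for 2i against Fgf2/Activin. Without replicate 1 of every group the log2 differences in Tcf7l2 were -0.77 (adjusted p = 0.000568) and 0.55 (adjusted p = 0.00159). For CH against Fgf2/Activin the adjusted p of Tcf7l2 was 0.0518, and it was 0.00244 with the block and 0.00205 without replicate 1 of every group. None of them reached the minimum fold change. The order of its mean levels was Esrrb NT (14.5 ± 2.13 CPM), Esrrb 4OHT, DMSO, 2i, CH and Fgf2/Activin (6.69 ± 1.72 CPM), where only the last step had no overlap.

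Levels of different genes can be set side by side only per kb of exon. Summed over Tcf7, Tcf7l1, Tcf7l2 and Lef1, the level was 91.5 ± 16.1 CPM per kb (SD, n = 3 in each group) in DMSO, 75.4 ± 2.57 in CH, 91.9 ± 9.92 in Fgf2/Activin and 82.4 ± 1.15 in 2i. The same sum was 78.2 ± 1.34 CPM per kb in Esrrb 4OHT and 69.9 ± 3.56 in Esrrb NT. Within these sums the share of each factor was computed in each sample.

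Tcf7l1 made up 43.3 ± 3.49% of the TCF/LEF level per kb in DMSO, 38.1 ± 1.40% in Fgf2/Activin, 28.5 ± 7.71% in 2i and 13.5 ± 6.98% in CH. The shares in CH ran from 5.49% to 17.8% and those in DMSO from 40.6% to 47.3%, so the groups were well separated. The share of Tcf7 in the same sums was 47.1 ± 8.92% in DMSO and 73.3 ± 9.16% in CH. Lef1 held 8.10 ± 5.66% of the TCF/LEF level in DMSO and 11.6 ± 1.95% in CH, and Tcf7l2 at most 2.38% in the mean of any group. Thus Tcf7 and Tcf7l1 together were the bulk of the TCF/LEF transcripts in each group, in near-equal shares in DMSO and with Tcf7 ahead in CH. These shares depend on the length taken for each gene. With the longest transcript in place of the union of exons, Lef1 held 14.7 ± 9.94% in DMSO and 22.0 ± 2.96% in CH, where it passed Tcf7l1 (13.6 ± 6.75%), and in DMSO Tcf7l1 (43.4 ± 2.43%) came before Tcf7 (39.3 ± 10.4%). Tcf7l2 remained the lowest in every group, although its largest group mean rose to 4.2% (Esrrb NT).

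For the Tcf7l1 share, CH minus DMSO was -29.8 percentage points (exact two-sided permutation p = 0.1). For the Tcf7 share it was 26.2 points (exact permutation p = 0.1). With 3 samples against 3 the smallest p this exact test can give is 0.1, so none of the shares could pass a threshold of 0.05. Shares of a sum are bound to each other, and a lower share of Tcf7l1 raises the other shares by construction. In the Esrrb fl/fl line the Tcf7l1 share was 16.8 ± 0.813% after 4OHT and 30.3 ± 3.88% without it, a difference of -13.45 points (exact permutation p = 0.1). There the Tcf7 share was 69.4 ± 1.11% after 4OHT and 52.8 ± 0.919% without it, and the samples did not overlap.

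**Figure D2:**
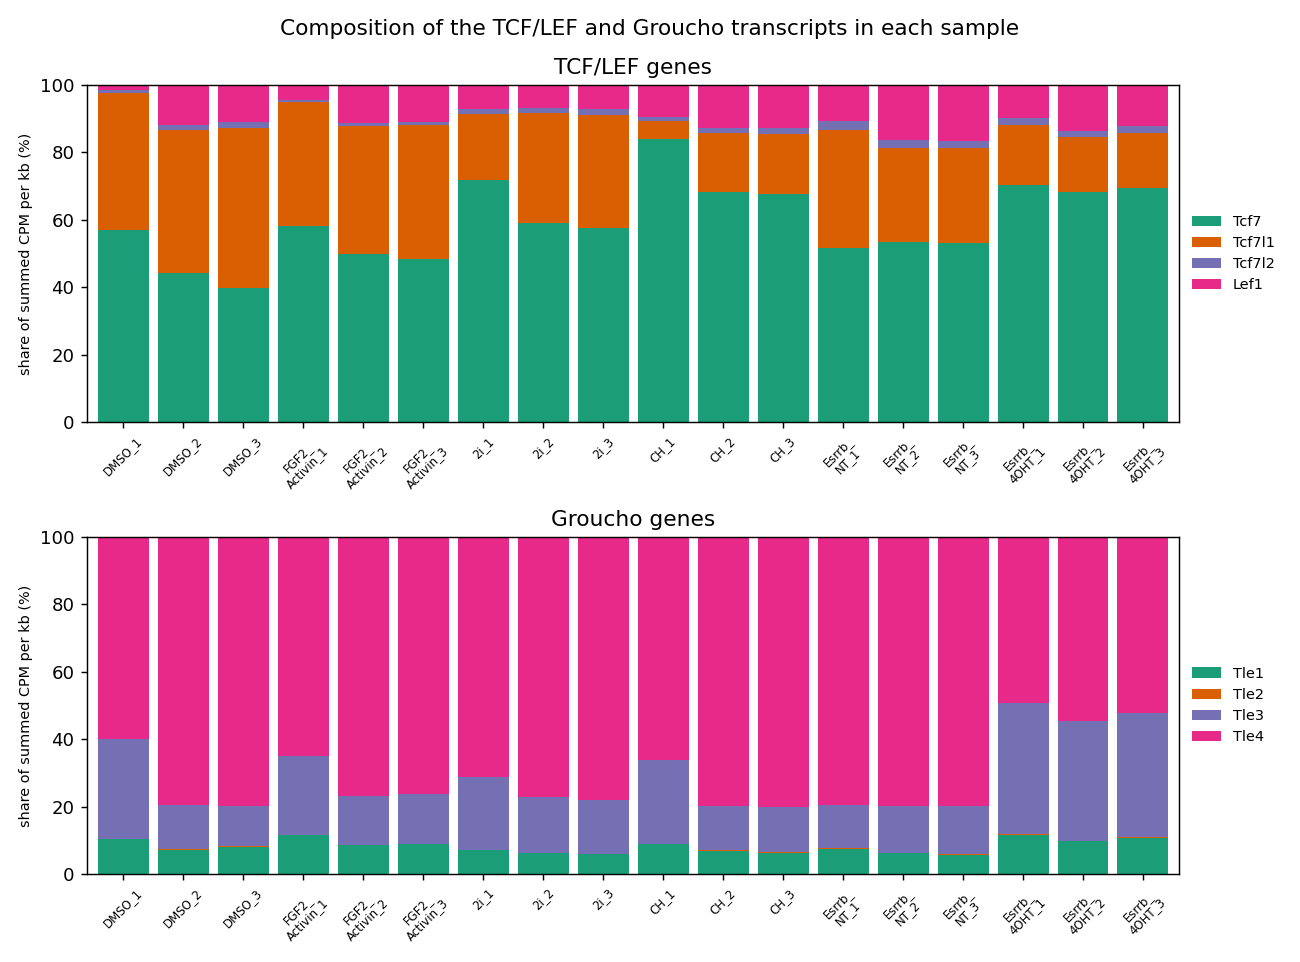
Share of each gene in the summed level per kb (y axis, percent) of the TCF/LEF genes and of the Groucho genes, as stacked bars for each of the 18 samples (x axis). The Tcf7l1 share was at most 17.8% in CH samples and at least 40.6% in DMSO samples, and the Tle3 share was at least 35.6% in Esrrb 4OHT samples and at most 14.2% in Esrrb NT samples.

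Ctnnb1 encodes β-catenin, which TCF/LEF factors need to activate their targets and which also serves in cell junctions. The gene (ENSMUSG00000006932) is on the plus strand of chromosome 9, from 120929216 to 120960507. Its level was 772.1, 681.9 and 669.3 CPM in DMSO and 703.6, 587.6 and 600.4 CPM in CH, so the groups overlapped through replicate 1 of CH. The samples of Fgf2/Activin had 715.1, 672.6 and 653.9 CPM of Ctnnb1, and those of 2i had 707.8, 636.1 and 621.9 CPM. Replicate 1 was the highest in every group, and the E14 groups overlapped throughout. Esrrb fl/fl cells had 689.5, 631.1 and 636.6 CPM of Ctnnb1 after 4OHT and 544.4, 522.2 and 515.7 CPM without it, with no overlap.

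On the log2 scale Ctnnb1 differed by -0.16 ± 0.085 between CH and DMSO (adjusted p = 0.15). It differed by -0.18 without replicate 1 of every group (adjusted p = 0.0013) and by -0.16 with the replicate block (adjusted p = 0.00657), far from the minimum fold change. Between CH and Fgf2/Activin it differed by -0.15 without replicate 1 of every group (adjusted p = 0.00341), and by -0.11 with all libraries (adjusted p = 0.341). After 4OHT the log2 difference was 0.34 ± 0.050 (adjusted p = 0.000432), higher in 3 of 3 replicates and short of the minimum fold change. By mean level the order was DMSO (707.8 ± 56.0 CPM), Fgf2/Activin, 2i, Esrrb 4OHT, CH and Esrrb NT (527.5 ± 15.04 CPM), and only Esrrb NT stood clear of its neighbour. GSK3 inhibitors act on the stability of the β-catenin protein, which transcript counts do not measure. Per kb of exon, Ctnnb1 had the highest level of all 9 members in each group, with 136.3 ± 10.8 CPM per kb in DMSO and 101.6 ± 2.90 CPM per kb in Esrrb NT.

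The Groucho corepressors have no DNA-binding domain of their own and are brought to DNA by factors such as TCF/LEF proteins. Tle4 was the most abundant of them per kb in every group. Its gene (ENSMUSG00000024642) lies on the minus strand of chromosome 19, from 14448150 to 14598051. In DMSO the level of Tle4 was 112.5, 206.3 and 191.9 CPM, in CH 100.6, 193.8 and 204.9 CPM. In Fgf2/Activin it was 133.5, 218.9 and 213.5 CPM, and in 2i 134.5, 190.2 and 197.4 CPM. Replicate 1 was the lowest sample in each of these groups, and all E14 groups overlapped. After 4OHT the Esrrb fl/fl line had 95.5, 125.2 and 118.3 CPM of Tle4, against 251.3, 298.9 and 302.7 CPM without 4OHT. Each 4OHT sample had less than each NT sample, and the groups lay far apart.

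After 4OHT, Tle4 fell by 1.29 ± 0.11 on the log2 scale (SE, adjusted p = 2.43e-05), which is 2.45-fold lower, in 3 of 3 replicates. Within replicates 1, 2 and 3 the log2 difference was -1.40, -1.25 and -1.35, and without replicate 1 of both groups it was -1.27 (adjusted p = 7.07e-18). Tle4 was the only member called in that comparison, and it was no call under glmTreat (adjusted p = 0.0319). Between CH and DMSO its log2 difference was -0.03 ± 0.31 (adjusted p = 0.95), and 0.01 without replicate 1 of every group (adjusted p = 0.852). With all libraries no comparison of E14 groups gave Tle4 an adjusted p under 0.05. Mean levels ran from 284.3 ± 28.6 CPM in Esrrb NT, which stood alone, through Fgf2/Activin (188.6 ± 47.8 CPM), 2i, DMSO and CH to 113.0 ± 15.5 CPM in Esrrb 4OHT, and those other neighbours overlapped.

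Tle3 showed the opposite direction in the Esrrb fl/fl line. This Groucho gene (ENSMUSG00000032280) occupies 61372366 to 61418497 on the plus strand of chromosome 9. Its level was 154, 167 and 171 CPM after 4OHT and 82.3, 106.6 and 109.9 CPM without it. All 4OHT samples were above all NT samples. In E14 cells the levels of Tle3 were 112.8, 70.0 and 58.9 CPM in DMSO, 77.1, 66.2 and 70.0 CPM in CH, 98.2, 84.4 and 84.1 CPM in Fgf2/Activin and 84.2, 83.8 and 82.0 CPM in 2i. The DMSO samples covered the whole range of the other E14 groups.

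The log2 difference in Tle3 after 4OHT was 0.76 ± 0.10 (adjusted p = 0.000306), higher in 3 of 3 replicates. It passed the threshold on adjusted p and missed that on fold change. Between CH and DMSO the log2 difference in Tle3 was -0.18 ± 0.19 (adjusted p = 0.481), and within replicates 1, 2 and 3 it was -0.55, -0.08 and 0.25. Its sign rested on 1 library: it was 0.14 without replicate 1 of DMSO, and 0.09 without replicate 1 of every group (adjusted p = 0.288). Without those libraries Tle3 differed by 0.37 between 2i and DMSO (adjusted p = 0.000184), 0.39 between Fgf2/Activin and DMSO (adjusted p = 0.000781), 0.29 between 2i and CH (adjusted p = 0.00519) and -0.30 between CH and Fgf2/Activin (adjusted p = 0.0012), all on the log2 scale. With all libraries these log2 differences were, in the same order, 0.05, 0.14, 0.23 and -0.32 (adjusted p = 0.846, 0.791, 0.601 and 0.195). Within replicate 1 Tle3 stood lower than in DMSO, by a log2 difference of -0.42 in 2i and -0.20 in Fgf2/Activin. Esrrb 4OHT (164 ± 8.87 CPM) came first in the order of means and stood clear of the rest, and Esrrb NT, Fgf2/Activin, 2i, DMSO and CH (71.1 ± 5.56 CPM) followed with overlaps at every step.

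Tle1 had tight replicates. This Groucho gene (ENSMUSG00000008305) lies on the minus strand of chromosome 4, from 72117142 to 72200919. Its level was 29.4, 28.6 and 29.9 CPM in DMSO and 36.4, 37.3 and 37.8 CPM in Fgf2/Activin, while CH had 20.8, 25.9 and 25.0 CPM and 2i had 20.3, 23.7 and 22.9 CPM. So Fgf2/Activin was above DMSO, and both were above the E14 groups with CHIR99021, sample by sample. In the Esrrb fl/fl line Tle1 stood at 34.1, 34.1 and 37.5 CPM after 4OHT and 36.0, 35.5 and 32.7 CPM without it, in overlapping ranges.

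Between 2i and Fgf2/Activin the log2 difference in Tle1 was -0.73 ± 0.098 (adjusted p = 9.54e-05), and between CH and Fgf2/Activin it was -0.63 ± 0.098 (adjusted p = 0.000377). For 2i against DMSO it was -0.39 ± 0.098 (adjusted p = 0.00651), and for CH against DMSO -0.29 ± 0.098 (adjusted p = 0.0326). On leaving out any single library of 2i or DMSO the adjusted p of Tle1 in 2i against DMSO was above 0.01 (up to 0.0283). All of these had the same sign in 3 of 3 replicates and none reached the minimum fold change. With the replicate block the adjusted p of Tle1 in CH against DMSO was 0.00665. Fgf2/Activin minus DMSO was 0.34 ± 0.097 on the log2 scale (adjusted p = 0.0774), and 0.37 without replicate 1 of every group (adjusted p = 0.000802). By mean level of Tle1, Fgf2/Activin (37.2 ± 0.741 CPM), Esrrb 4OHT and Esrrb NT came first, each overlapping with the next, DMSO (29.3 ± 0.646 CPM) stood alone, and CH and 2i (22.3 ± 1.79 CPM) overlapped at the bottom.

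Tle2 was close to the limit of detection. The gene (ENSMUSG00000034771) spans 81574561 to 81590845 on the plus strand of chromosome 10. It had 16, 15 and 11 counts in the DMSO libraries and 2, 4 and 3 counts in those of CH. Fgf2/Activin libraries held 9, 10 and 14 counts of Tle2, and 2i libraries 4, 7 and 9. In the Esrrb fl/fl line there were 11, 13 and 7 counts after 4OHT and 12, 13 and 17 without it. As levels these gave means of 0.441 ± 0.0250 CPM in DMSO and 0.106 ± 0.0334 CPM in CH, with no overlap between the samples.

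The edgeR fit put the log2 difference of Tle2 between CH and DMSO at -2.01 ± 0.40 (adjusted p = 0.00189), and at -1.79 without replicate 1 of every group (adjusted p = 0.0087). Because the filter kept the gene through its high groups, these values are a description. From the summed counts, 9 in CH and 42 in DMSO, the ratio of CH to DMSO was 0.240, with a 95% exact counting interval from 0.103 to 0.500. Against Fgf2/Activin, with 33 counts, the ratio of CH was 0.296 (interval 0.125 to 0.632) and the adjusted p was 0.00518, which went above 0.01 on leaving out any single CH library, or replicate 2 or 3 of Fgf2/Activin (up to 0.0262), and without replicate 1 of every group (0.0151). Between 2i and DMSO the ratio was 0.479 (interval 0.266 to 0.834). After 4OHT the ratio to NT was 0.665 (interval 0.404 to 1.08), so no difference in Tle2 was detectable there at this depth. The intervals cover counting error only, since they pool the libraries of each group and leave out the spread between samples. Reads are not independent molecules, so even the counting error may be understated. Mean levels of Tle2 were highest in Esrrb NT (0.734 ± 0.132 CPM), followed by Esrrb 4OHT, DMSO, Fgf2/Activin, 2i and CH, with no overlap at the first and the last step of that order.

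Summed over Tle1, Tle2, Tle3 and Tle4, the Groucho level was 40.2 ± 6.58 CPM per kb (SD, n = 3 in each group) in DMSO, 38.1 ± 9.92 in CH, 45.03 ± 7.78 in Fgf2/Activin and 40.3 ± 6.18 in 2i. It was 38.0 ± 3.51 CPM per kb in Esrrb 4OHT and 62.5 ± 6.19 in Esrrb NT. The E14 groups overlapped in this sum, and the Esrrb fl/fl groups did not.

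Tle4 held 73.1 ± 11.3% of the Groucho level per kb in DMSO, 75.3 ± 7.93% in CH, 72.7 ± 6.72% in Fgf2/Activin and 75.4 ± 3.76% in 2i. Its share was 79.8 ± 0.175% in Esrrb NT and 52.0 ± 2.60% in Esrrb 4OHT, a difference of -27.8 percentage points (exact permutation p = 0.1, the smallest possible). Over the same samples the share of Tle3 was 13.6 ± 0.762% without 4OHT and 37.1 ± 1.69% with it, a difference of 23.5 points (exact permutation p = 0.1). The Tle1 share differed by 4.24 points in the same direction (exact permutation p = 0.1), with 6.44 ± 0.932% without 4OHT. In E14 cells Tle3 held 18.2 ± 9.77% of the Groucho level in DMSO and 17.2 ± 6.62% in CH, in overlapping ranges. Tle2 made up at most 0.209% in the mean of any group.

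**Figure D3:**
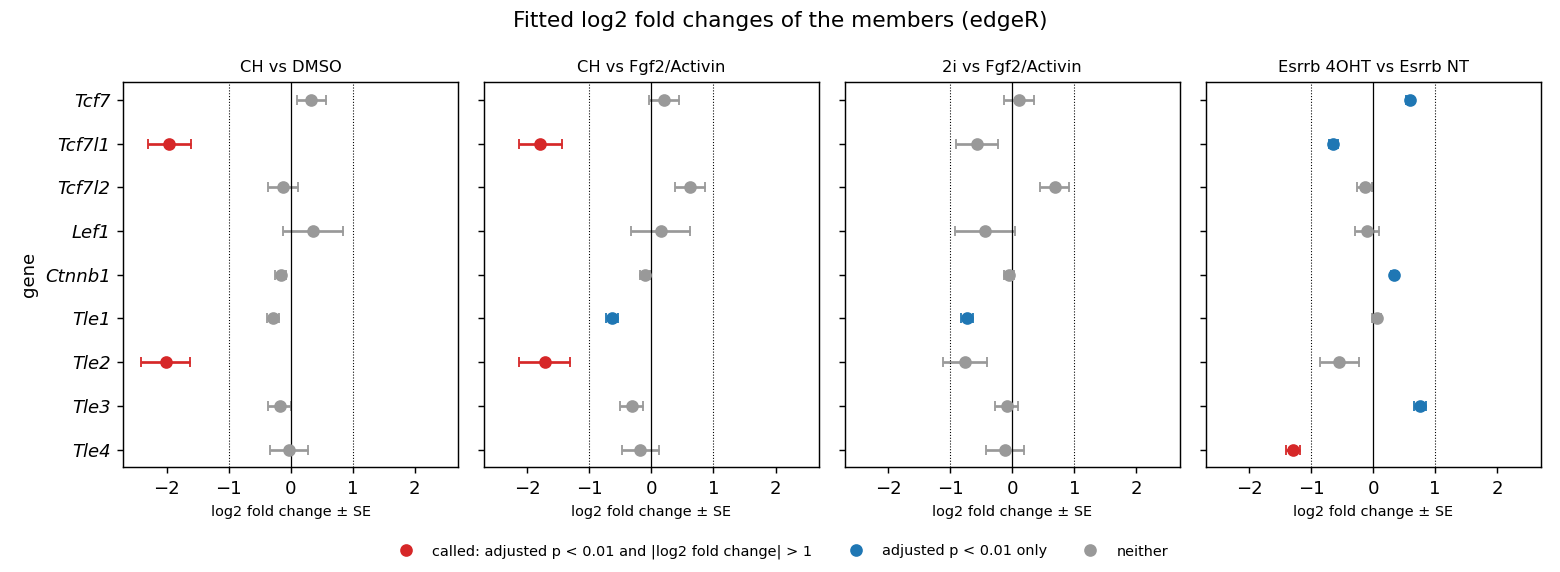
Log2 fold change ± SE (x axis) of each of the 9 members (y axis) in CH against DMSO, CH against Fgf2/Activin, 2i against Fgf2/Activin and Esrrb 4OHT against Esrrb NT, with called genes in red, genes with an adjusted p under 0.01 alone in blue and the others in grey. Tcf7l1 stood at -1.96 in CH against DMSO, and Tle4 at -1.29 in Esrrb 4OHT against Esrrb NT.

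The genes whose pattern over the 12 E14 samples was most like that of each member were found among 10465 other genes with a mean of at least 5 CPM, by the Pearson correlation of log2 levels. These samples share their groups and replicate numbers, so the values are a description. For Tcf7l1 they were Cds2 (r = 0.969), Atf7ip (r = 0.966) and Tuba1c (r = 0.961). Tcf7 was most like Tom1 (r = 0.970), Iqgap2 (r = 0.960) and Xpr1 (r = 0.958). The closest to Lef1 were AA465934 (r = 0.942), Cct8 (r = 0.933) and Zc3h15 (r = 0.928). Tcf7l2 had Ints9 (r = 0.921), Wbp1l (r = 0.915) and Lrmp (r = 0.912) nearest to it. Nearest to Ctnnb1 were Ndufa7 (r = 0.983), Mpnd (r = 0.975) and Fuca2 (r = 0.974). Among the Groucho genes, Tle1 was most like Slc29a2 (r = 0.989), Ccdc85b (r = 0.989) and Mmp25 (r = 0.986). For Tle2 the nearest were Zbtb7b (r = 0.953), Prpsap2 (r = 0.948) and Cacnb3 (r = 0.947). Tle3 came closest to Pbxip1 (r = 0.939), Suco (r = 0.926) and Ptms (r = 0.918). The pattern of Tle4 was closest to those of Tardbp (r = 0.983), Hspd1 (r = 0.981) and Nap1l1 (r = 0.980).

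Genes known to answer Wnt signals through TCF/LEF factors were taken as a list of 11. In CH against DMSO 5 of 11 rose and 1 fell, where 17.7% of all genes were called. The median log2 fold change of the list was 1.79, beside -0.0022 over all genes. Axin2, a scaffold of the destruction complex, had 7.83 ± 1.27 CPM in DMSO and 194.5 ± 65.5 CPM in CH. The levels of T, a factor of the primitive streak, were 0.469 ± 0.118 CPM in DMSO and 533.9 ± 117.8 CPM in CH. Sp5, a transcription factor, had 4 counts in all DMSO libraries together, and 212.9 ± 81.7 CPM in CH. Dkk1, another gene of the list that rose, had 13 counts in DMSO and 17 in Fgf2/Activin. The filter kept Sp5 and Dkk1 only through the CH and 2i libraries, where they were higher. Their part in the counts of CH or 2i against DMSO or Fgf2/Activin is therefore a description. Notum, a secreted enzyme that inactivates Wnt ligands, went from 0.993 ± 0.188 to 46.6 ± 7.29 CPM. In CH against Fgf2/Activin 6 of the 11 rose and 1 fell (18.2% of all genes called). In 2i against DMSO 5 rose and 1 fell (22.3% of all genes). In 2i against Fgf2/Activin 6 rose and 3 met the rule as lower (23.5% of all genes). Among those 3, Lgr5, with 3 counts in 2i and 43 in Fgf2/Activin, passed the filter only through its higher group and is a description. Between 2i and CH, where 1.99% of all genes were called, 2 of the 11 were called, both lower in 2i. They were T, at 91.0 ± 19.7 CPM in 2i, and Nkd1, an inhibitor of Wnt signalling. Levels of Nkd1 were 2.33 ± 0.470 CPM in 2i and 8.13 ± 3.58 CPM in CH. In Fgf2/Activin against DMSO, where 1.25% of all genes were called, edgeR called 0 of the 11, DESeq2 called 0, and 2 had an unadjusted p under 0.05. After 4OHT, where 16.7% of all genes were called, 7 of the 11 rose and 0 fell by edgeR (7 called by DESeq2, 9 at an unadjusted p under 0.05), with a median log2 fold change of 1.53. Nkd1, with the largest log2 fold change among them, stood at 20.6 ± 2.67 CPM after 4OHT and 2.18 ± 0.406 CPM without it. T stood at 395.7 ± 75.1 CPM after 4OHT and 43.3 ± 5.65 CPM without it, and Sp5 at 121.8 ± 8.59 and 31.9 ± 1.124 CPM. Axin2, at 201.8 ± 4.26 and 170.9 ± 7.03 CPM, was not called there.

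Partners of the members stand beside a background of 17.7% of all genes called in CH against DMSO and 16.7% after 4OHT. Of 13 nuclear coactivators of β-catenin, 1 was called in CH against DMSO, Pygo1, an adaptor that binds methylated histone tails, higher, from 0.486 ± 0.199 to 2.69 ± 1.92 CPM. The CH samples of Pygo1 were spread widely, from 1.56 to 4.90 CPM, while those of DMSO ran from 0.268 to 0.657 CPM. By adjusted p under 0.01 alone 3 of the 13 were higher and 3 lower there (28.9% of all genes). After 4OHT 2 of the 13 were called higher, Pygo1 and Bcl9l, which bridges β-catenin and Pygo proteins and went from 21.2 ± 0.579 to 57.7 ± 10.6 CPM. Of 10 nuclear repressors and inhibitors, edgeR called 0 in CH against DMSO and DESeq2 called 0, with 6 at an unadjusted p under 0.05 and 4 lower by adjusted p alone. In the destruction complex and its regulators, 15 genes, Axin2 rose and Apc2 fell in CH against DMSO, the latter from 2.86 ± 0.836 to 0.638 ± 0.227 CPM. After 4OHT Apc2 went the other way, from 0.716 ± 0.120 to 1.83 ± 0.137 CPM, as the only call of that list. Of 7 junction partners of β-catenin, 1 met the rule as lower in CH, Ctnna2, which had 0 counts in all CH libraries together and 20 in those of DMSO. The filter kept Ctnna2 through the Fgf2/Activin libraries, with 35 counts, so this is given as a description. Of 2 further Groucho-family genes in the annotation, Aes and Tle6, the latter fell after 4OHT, from 3.27 ± 0.435 to 0.962 ± 0.0603 CPM. In the Esrrb fl/fl fit the filter kept Pygo1, and Lgr5 and Nkd2 of the Wnt targets, only through the 4OHT libraries, so their part in the counts after 4OHT is a description too.

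Naive pluripotency factors that the study followed downstream of Tcf7l1 were Esrrb, Klf2, Nr0b1, Tfcp2l1 and Nanog. The study drew this list in part from these samples, so its direction is no independent evidence. In CH against DMSO, where 17.7% of all genes were called, 5 of 5 rose (4 called by DESeq2), with a median log2 fold change of 4.08. Nr0b1, for example, had 2.76 ± 0.484 CPM in DMSO and 69.8 ± 15.8 CPM in CH, and Tfcp2l1 15.8 ± 12.5 and 269.2 ± 25.0 CPM. The DMSO samples of Tfcp2l1 were spread widely, from 7.77 to 30.2 CPM. After 4OHT 2 of 5 fell by edgeR, where 16.7% of all genes were called. They were Nr0b1, from 38.2 ± 6.69 to 5.69 ± 1.33 CPM, and Klf2, from 165.7 ± 4.71 to 33.4 ± 3.43 CPM. DESeq2 called 3 there, and by adjusted p under 0.01 alone 5 of 5 were lower, a rule that 44.5% of all genes met. The list holds Esrrb, the gene that 4OHT was to delete, so its fall is no finding of the list.

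Some markers of other cell types also differed between groups in which Tcf7l1 or Tle4 differed. The 6 of 6 mesoderm and streak markers summed to 10.2, 14.5 and 14.7 CPM in DMSO replicates 1 to 3, with Eomes the most abundant, and to 672.8, 508.6 and 441.2 CPM in CH, where nearly all was T. Eomes went the other way, from 11.5 ± 2.72 CPM in DMSO to 2.71 ± 1.52 CPM in CH, and was called lower. Their sums were 13.0, 18.7 and 18.5 CPM in Fgf2/Activin and 118.7, 84.8 and 83.7 CPM in 2i. They were 332.6, 481.8 and 474.5 CPM after 4OHT and 53.7, 76.7 and 77.4 CPM without it. Msgn1 was at 0 in each DMSO, 2i and Esrrb NT sample, and in CH, where T was highest, Mesp1 was at 0 in replicate 3.

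The 5 of 5 trophoblast markers summed to 11.9, 3.16 and 3.01 CPM in DMSO, with Tfap2c leading, and to 116.1, 79.7 and 70.0 CPM in CH, with Cdx2 leading. Fgf2/Activin had 1.15, 1.78 and 1.25 CPM of this sum and 2i had 51.8, 32.3 and 35.7 CPM, with Tfap2c leading in both. In CH the sum was almost all Cdx2, at 63.7 ± 24.7 CPM, and Tfap2c, at 24.6 ± 0.721 CPM. Elf5, Hand1 and Gata3 stood at 0.107, 0.118 and 0.0796 CPM there and did not pass the filter in E14 cells. The mean of Gata3 was higher in DMSO, at 0.571 ± 0.780 CPM, in overlapping ranges. After 4OHT the sum was 27.4, 22.5 and 30.1 CPM, and without it 30.6, 20.3 and 18.9 CPM. Its parts moved apart there: Cdx2 was called higher after 4OHT, at 17.0 ± 3.01 CPM against 8.05 ± 1.74 CPM, while Tfap2c stood at 8.20 ± 1.74 and 14.02 ± 4.34 CPM (adjusted p = 0.0222). Cdx2 was at 0 in replicate 1 of DMSO and of Fgf2/Activin.

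The 4 of 4 neural markers, led by Tubb3 in every sample, summed to 38.1, 76.8 and 116.9 CPM in DMSO and to 6.84, 25.2 and 24.4 CPM in CH. Their sums were 54.2, 70.6 and 74.4 CPM in Fgf2/Activin, 11.3, 41.4 and 42.4 CPM in 2i, 8.73, 7.10 and 6.29 CPM after 4OHT and 28.6, 17.2 and 17.9 CPM without it. The 4 of 4 fibroblast markers, led by Thy1, summed to 49.4, 16.3 and 20.5 CPM in DMSO, 6.37, 7.51 and 5.48 CPM in CH and 25.9, 13.1 and 14.8 CPM in Fgf2/Activin. In 2i their sum was 2.26, 2.57 and 2.31 CPM, after 4OHT 7.34, 10.5 and 10.4 CPM, and without it 18.4, 24.9 and 26.5 CPM. The lower sum after 4OHT was that of Thy1, at 6.15 ± 2.29 CPM after 4OHT and 22.9 ± 4.19 CPM without it. Col1a2 stood in the other direction there, at 2.21 to 3.17 CPM after 4OHT and 0.107 to 0.365 CPM without it, and the filter kept it only through the 4OHT libraries. Postn was at 0 in all DMSO, Fgf2/Activin, 2i and Esrrb NT samples. The primitive endoderm markers summed to 4.22, 6.82 and 7.18 CPM after 4OHT and to 3.16, 1.81 and 3.02 CPM without it. There Pdgfra and Gata4 met the rule as higher and Sox7 as lower. The filter kept each of them only through its higher group, so these are a description. Of these markers, T also stands in the list of Wnt targets. Their part in the results on the members was not tested.

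The annotation sets limits for single genes. Reads were counted without regard to strand, so strand could not assign reads from exons shared with a gene on the other strand. The study names no rule for such reads, which may be missing from the counts. Exons of Ctnnb1 overlap with other genes over 15.1% of their length, those of Lef1 over 13.8% and those of Tcf7l1 over 4.56%. No member shares 75 or more bases at 95% identity or above with another member. With other genes, Lef1 has such matches to Eprs, Gm19024, Gm40437 and Gm43352 (the longest of 1211 bases) and Ctnnb1 to Ulk4 (476 bases). Tle1 has a match to Gm11250 (247 bases), Tcf7l1 to Gm15401 (100 bases) and Tle2 to Gm15917 (99 bases). Gene counts do not separate isoforms, such as the short forms of Tcf7 and Lef1 that lack the β-catenin binding domain and act as inhibitors.

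The windows of 250 bases before annotated starts (RefSeq, GRCm38.p6) were searched for the letters CTTTGAT and CTTTGAA, which TCF/LEF factors bind, and TCAAGGTCA, which Esrrb binds, on both strands. Of 16 windows for the 9 members, some of which overlap, 0 held any of them. Among all 32851 windows 7.48% held either of the TCF/LEF letters (3.21% and 4.46% singly) and 0.387% those of Esrrb, so a count of 0 among so few windows does not set the members apart.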

How the data were processed

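The authors deposited raw counts per Ensembl gene for all 18 samples. According to the study they had aligned reads to mm10 with TopHat2 and counted them on GRCm38 genes with HTSeq in its unstranded mode, and the Ensembl release was not stated. Symbols came from an annotation of GRCm38 and were found for 49326 of 49671 identifiers. Counts were fitted in R 4.3.3, using limma 3.58.1 and edgeR 4.0.16 (TMM scaling, filterByExpr, quasi-likelihood F-test). The 12 E14 samples shared 1 fit and the 6 Esrrb fl/fl samples another, without a replicate term. Levels are CPM with TMM over all 18 samples, and per kb they use the union of annotated exons. Shares were compared by exact permutation of samples. The Tle2 ratios carry exact conditional binomial intervals. Sequence shared between members was sought with blastn 2.17.0. Python 3.11.15 with matplotlib 3.10.9 made the figures. The code was tested on simulated data.

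Samples of the same number were checked for pairing. Over genes, the residuals of samples from different groups correlated on average at 0.662 in E14 cells between samples numbered 1, and at -0.587 between those and the others. Samples numbered 2 and 3 correlated as well with each other (0.521) as with their own number (0.520), and in the Esrrb fl/fl line too (0.362 and 0.352). So the values show replicate 1 apart. The residuals were taken from group means that include replicate 1, so the values cannot settle whether numbers 2 and 3 were paired. The labels name no pairing, so a paired fit with the replicate number as a term was an alternative: with this replicate block Tcf7l1 in CH against DMSO fell by 2.04 on the log2 scale (adjusted p = 0.00021). The block changed no call of a member under both thresholds, although it took several adjusted p values under 0.01 at smaller fold changes.

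All members were named. Of each pathway list, at most 4 called genes per comparison were named for their values, from those with the largest fold changes. Lgr5, Nkd2 and Dkk1 were named only for how the filter kept them. Axin2, Apc2, Cdx2, Tfap2c, Pdgfra, Gata4 and Sox7 after 4OHT, Utf1, Eomes and Col1a2 were named after their values were seen. So were Cdx2 and Tfap2c in CH, Elf5, Hand1, Gata3, Neurod1 and Pax6. For each member the 3 genes with the highest correlation were named. The members and lists were chosen with earlier results of these data known. Alternatives tried were DESeq2 1.42.0 size factors and its test, other filters on low counts, glmTreat, no minimum fold change, 1 fit of all samples, fits of the compared samples alone, a replicate block, transcript length and leaving out samples.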

Additional observations from a re-analysis of the deposited data

How the results depend on the processing

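Over 7 comparisons and all alternatives, the log2 fold changes of the members kept their call and, where called, their direction in 967 cases, gained a call in 9, lost it in 13 and turned a called direction in 0. Most of the 967 were genes that were not called and stayed so. Calls to lose were only those of Tcf7l1 and Tle2 in CH against DMSO and against Fgf2/Activin, and of Tle4 after 4OHT. Most of the 13 losses were of Tle2 in CH against Fgf2/Activin, and the others came under glmTreat. In CH against Fgf2/Activin 1 member (Tcf7l1) was called in place of 2 with no filter on low counts, with at least 10 counts in every sample, by the DESeq2 test, with only the 6 samples compared and without replicate 1 of every group. Leaving out single libraries gave 1 to 2 members there. Tle2 was the gene lost, and with the filter at 10 counts or with only those 6 samples it was not tested. For that reason CH against DMSO also gave 1 member with at least 10 counts in every sample. Under glmTreat, which tests against a log2 fold change of 1, CH against DMSO, CH against Fgf2/Activin and Esrrb 4OHT against Esrrb NT each gave 0 members, with adjusted p of 0.0203 for Tcf7l1 in CH against DMSO and 0.0319 for Tle4. By DESeq2, and without replicate 1 of every group, 2i against CH gave 1 member, Tcf7l1, higher in 2i, where its adjusted p over all alternatives ran from 9.05e-10 to 1. With no minimum fold change 2i against Fgf2/Activin and 2i against DMSO each gave 1 member, Tle1, and Esrrb 4OHT against Esrrb NT gave 5, of which 3 were higher and 2 lower. The Tle1 share in the Esrrb fl/fl line differed by 5.80 points when the longest transcript set the length, which also raised the Lef1 share in DMSO from 8.10% to 14.7%. Beyond the untested Tle2 and the stricter or looser rules themselves, the cause was not tested. Leaving out replicate 1 of every group was chosen after seeing the data.

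Leaving out single libraries moved the log2 difference of Tcf7l1 in CH against DMSO between -2.18 and -1.59 and that of Tle4 after 4OHT between -1.38 and -1.18, and both were called each time. The replicate block changed no call of a member under both thresholds. The background moved as well: between 2i and CH 52 genes were called higher and 274 lower, against 214 and 554 without replicate 1 of every group. The spread between replicate 1 and the other libraries limits what could be detected in members such as Lef1, and Tle2 rests on at most 17 counts in a library. Transcript levels say nothing of protein, its location or its binding to DNA. The Esrrb fl/fl results come from 1 line.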
